A study of Mus musculus with 2 samples.

Results

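Fatty acid oxidation breaks fatty acids down to acetyl-CoA and passes the electrons released to the respiratory chain. Described here are 34 genes of its enzymes and carriers, taken by symbol from a list of the pathway. They were grouped by role into 6 carnitine shuttle genes, 16 of mitochondrial beta-oxidation, 3 of electron transfer, 4 peroxisomal genes and 5 acyl-CoA thioesterases. Of the 34, 32 had a feature (the array's unit of measurement, which covers one transcript cluster) that the platform annotation assigns to that gene alone. Comparison required a value on 1 array or both above a floor of 4.65, the median of all values on both arrays. This left 30 of the members, among 13015 genes compared of 22180 with a feature of their own.

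Long-chain fatty acids, once activated to acyl-CoA, enter mitochondria as carnitine esters. Inside, each round of beta-oxidation removes an acetyl-CoA by dehydrogenation, hydration, another dehydrogenation and thiolysis, and the electrons of the opening dehydrogenation leave through electron transfer flavoprotein. Peroxisomes shorten very long and branched chains, and thioesterases release free fatty acids from CoA. Alveolar macrophages, the resident phagocytes of the air spaces, take up and degrade surfactant lipid, and the lipid-sensing nuclear receptor PPARgamma is required for their development.

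The cells were alveolar macrophages isolated by flow cytometry from lungs of mice 8 to 10 weeks old, with 1 Affymetrix array for the genotype Lysm-Cre and 1 for the genotype given as Lysm-Cre Ssu72fl/fl. Both genotypes carried Cre, which the lysozyme 2 locus drives in macrophages, neutrophils and other myeloid cells. The floxed alleles of Ssu72, a phosphatase of the RNA polymerase II C-terminal domain, were named for the latter group only. The mouse strain, the number of mice behind an array and the extent of recombination were not given in the sources used here. With no replicates there is no test between genotypes and no error between animals, and the 2 arrays limit the precision of every value. In bulk samples, fewer cells of a type and less RNA per cell cannot be told apart.

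All values are the authors' log2 expression values, and each difference is the Ssu72fl/fl-labelled array minus the Lysm-Cre array. Ssu72 itself read 4.86 on the Lysm-Cre array and 5.0 on the other. It was thus not lower where its alleles were labelled as floxed, and directions below rest on the labels alone. Whether its probes lie inside the deleted part was not given in the sources used here; a probe outside it would check nothing. Among protein-coding genes compared, differences became more negative as signal rose (Pearson r = -0.36 across 11706 genes, which share the arrays and are no replicates). A level-adjusted difference is therefore given beside the deposited one. It is what remains after subtracting the median difference of the protein-coding genes nearest in mean level (the gene itself and 200 others), and the robust SD, estimated from the median absolute deviation, of those same genes is called the spread. The spread describes scatter between genes and not between animals.

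The members had no common direction. Those measured above the floor on both arrays that stood apart from genes of their level were lower on the Ssu72fl/fl-labelled array. Of the 30 compared, 17 were lower and 13 higher, which is 56.7% lower, against 51.9% of all genes compared and 52.3% of protein-coding genes compared. Their median difference was -0.030, and that of all genes compared was -0.0068. A level-adjusted difference beyond 1 spread was found for 8 members on the lower side and 0 on the higher side. The 8 were Ech1, Hadha, Hadh, Acadl, Acadvl, Etfa, Etfb and Ehhadh. They make up 26.7% of the members compared, where 16.5% of protein-coding genes lay beyond 1 spread on the lower side and 15.2% on the higher side. Among the 8, Ehhadh passed the floor on the Lysm-Cre array only, and 3 other members (Acad9, Acad10 and Eci2) are bounds whose differences the floor cut short. These 3 cannot be placed inside their spreads, so the 0 on the higher side does not settle Acad9 and Acad10. Of the 26 members above the floor on both arrays, 7 lay beyond 1 spread on the lower side (26.9%) and 0 on the higher side. The corresponding shares of protein-coding genes above the floor on both arrays were 15.1% and 13.8%. At 1.5-fold, only Ech1 was lower among the members (1 of 30), against 1.37% of all genes compared. No member was 1.5-fold higher, as were 0.315% of all genes compared.

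**Figure D1:**
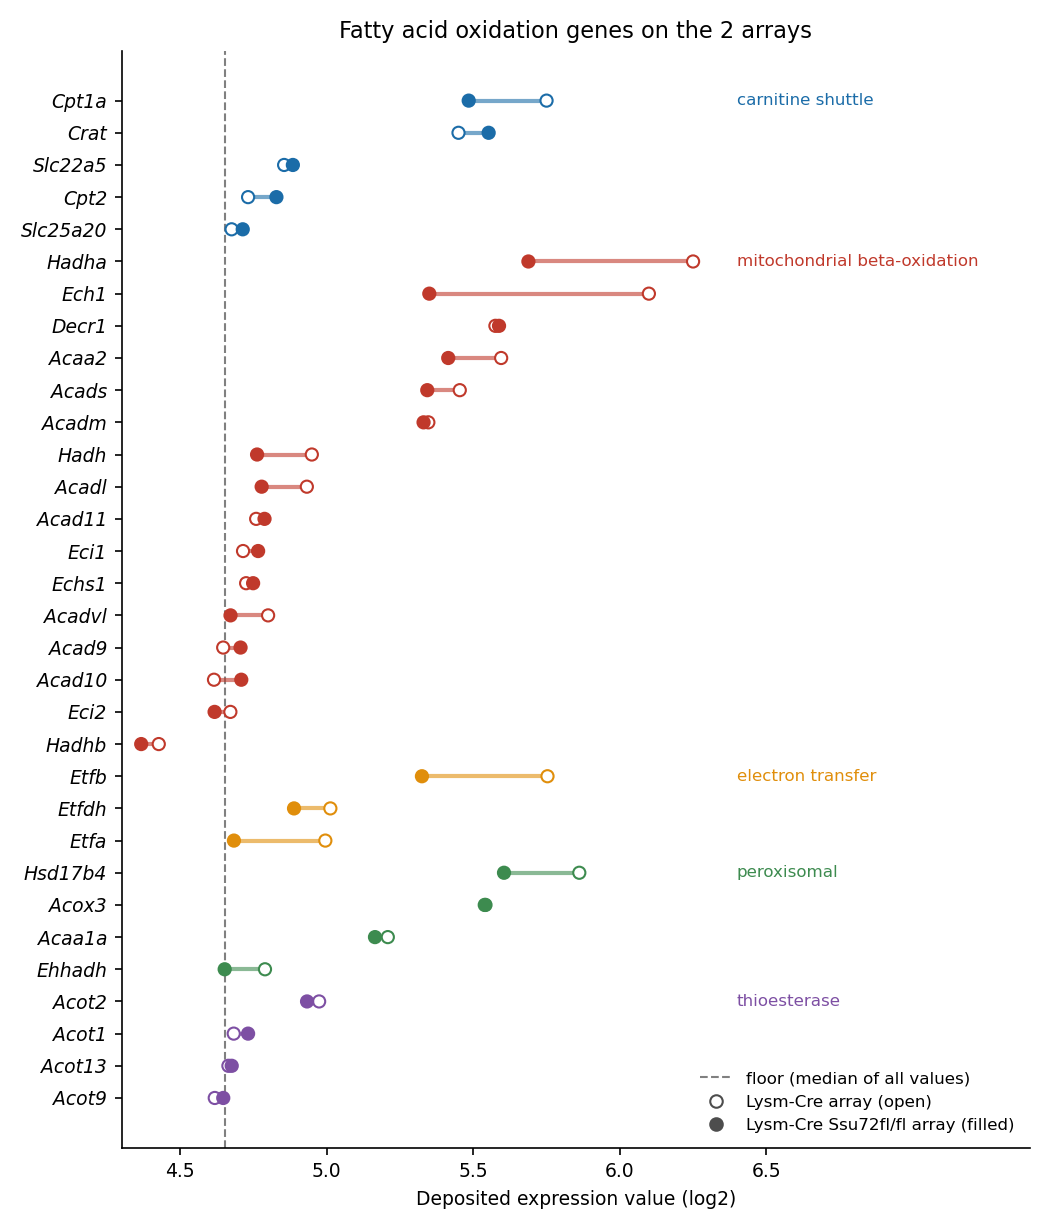
Deposited log2 values of the 32 members with a feature of their own on the Lysm-Cre array (open) and the Ssu72fl/fl-labelled array (filled), grouped by role. The dashed line is the floor of 4.65, and the longest gaps, all with the filled point on the left, belong to Ech1, Hadha, Etfb and Etfa.

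Of 5 carnitine shuttle genes compared, 4 were higher and the entry enzyme was lower, with a median of 0.038. One of the 4, Crat, is of uncertain direction. Cpt1a encodes the outer membrane acyltransferase that commits long-chain acyl groups to oxidation, and its activity limits the rate of the pathway. It read 5.75 on the Lysm-Cre array and 5.48 on the Ssu72fl/fl-labelled array, a difference of -0.27. The level-adjusted difference of Cpt1a was -0.18, inside a spread of 0.24. Cpt2, the inner membrane enzyme that returns the acyl group to CoA, read 4.73 and 4.83 in the same order, a difference of 0.097 against a spread of 0.11. The carnitine-acylcarnitine exchanger gene Slc25a20 read 4.68 and 4.71 (0.038). Slc22a5, which imports carnitine across the plasma membrane, read 4.85 and 4.88 (0.030). Both lay inside their spreads of 0.088 and 0.13.

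Crat, the carnitine acetyltransferase gene, was the one member measured by more than 1 feature of its own, and these went opposite ways. The brighter feature, which stands for the gene here, read 5.45 and 5.55 (0.10), and the other read 5.41 and 5.19 (-0.21). The gap between the pair was 0.31. Over 334 genes with exactly 2 features above the floor on both arrays, 47.0% had features of opposite sign and the median gap was 0.17. A gap as large as that of Crat or larger was found in 21.9% of them. The mean over both features of Crat was lower on the Ssu72fl/fl-labelled array (-0.055), so no direction is given for this gene. Cpt1b, the muscle-type form of the entry enzyme, shared its only feature with other genes and was not compared.

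The acyl-CoA dehydrogenases, which catalyse the opening step and differ in the chain length they accept, were compared for 7 genes, of which Acadvl and Acadl lay beyond 1 spread. Acadvl, for very long chains, read 4.8 on the Lysm-Cre array and 4.67 on the Ssu72fl/fl-labelled array. Adjusted for level, it differed by -0.15 against a spread of 0.089. Acadl, for long chains, read 4.93 and 4.78, with a level-adjusted difference of -0.17 against 0.13. Of the other 200 protein-coding genes nearest in level, 18 were as low as Acadvl or lower, and 22 were as low as Acadl or lower. Both genes were close to the floor, where differences are small for all genes.

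Acadm, for medium chains, was nearly equal on the 2 arrays, at 5.35 and 5.33 (-0.016). Acads, for short chains, read 5.45 and 5.34, a difference of -0.11 inside a spread of 0.21. Acad11, a long-chain enzyme, read 4.76 and 4.79 (0.029). Acad9, whose protein also assembles respiratory complex I, and the little-studied Acad10 were below the floor on the Lysm-Cre array and are bounds. They were at least 0.054 and at least 0.056 higher on the Ssu72fl/fl-labelled array. A bound that falls short of its spread, as both did, cannot be placed inside or outside it. Their spreads were 0.080 for Acad9 and 0.061 for Acad10. With values under the floor kept, the deposited differences were 0.059 and 0.093. These cannot be set against the spreads, which come from differences cut at the floor. Acadm, Acads and Acad11 stayed within their spreads after level adjustment.

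Hadha showed one of the largest differences of the set. It encodes the alpha subunit of the mitochondrial trifunctional protein, which hydrates and then dehydrogenates long-chain intermediates. It read 6.25 on the Lysm-Cre array and 5.69 on the Ssu72fl/fl-labelled array, a difference of -0.56, or 1.48-fold lower. Adjusted for level, the difference was -0.39, beyond a spread of 0.25, and 9 of the other 200 protein-coding genes nearest in level were as low or lower. The beta subunit gene Hadhb, which carries the thiolase activity, read 4.43 and 4.37 and was not above the floor on either array. The partner could therefore not be compared.

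Hadha and Hadhb lie head to head, so the sequence between their starts is upstream of both, and it is shown because only one of the pair was measured above the floor. In RefSeq's annotation of assembly GRCm38.p6, 272 bases separate the starts. The 250 bases before the start of Hadha, chr5:30154981-30155230 on the minus strand, are printed 5′ to 3′. Capitals mark GGGCGG, the GC box, on either strand.
Hadha: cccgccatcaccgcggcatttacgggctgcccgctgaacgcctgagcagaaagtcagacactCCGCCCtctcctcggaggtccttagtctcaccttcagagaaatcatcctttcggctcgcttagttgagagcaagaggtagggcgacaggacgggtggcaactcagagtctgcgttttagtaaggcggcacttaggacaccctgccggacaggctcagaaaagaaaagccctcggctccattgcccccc
The window holds 1 GC box, which begins 188 bases before the start of Hadha and lies on the opposite strand. It holds no CCAAT.

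The enzymes of hydration, the later dehydrogenation and thiolysis differed. Hadh, the hydroxyacyl-CoA dehydrogenase for medium and short chains, read 4.95 and 4.76, with a level-adjusted difference of -0.21 against a spread of 0.12. Of the other 200 protein-coding genes nearest to Hadh in level, 15 were as low or lower. Echs1, the short-chain enoyl-CoA hydratase gene, was nearly equal at 4.72 and 4.75 (0.024). Acaa2, the mitochondrial thiolase gene, read 5.60 and 5.41, a difference of -0.18 that was -0.13 after level adjustment and inside a spread of 0.21.

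Among the auxiliary enzymes that rearrange double bonds of unsaturated fatty acids, Ech1 had the largest difference of all members. Ech1 encodes a dienoyl-CoA isomerase. It read 6.10 on the Lysm-Cre array and 5.35 on the Ssu72fl/fl-labelled array, a difference of -0.75, or 1.68-fold lower. After level adjustment it was -0.65 against a spread of 0.23, and 4 of the other 200 protein-coding genes nearest in level were as low or lower. Of 4148 protein-coding genes with a mean level from 5 to 6, 0.988% were 1.5-fold lower. The isomerase gene Eci1 read 4.71 and 4.77 (0.051), inside a spread of 0.10. Eci2, another isomerase gene, fell under the floor on the Ssu72fl/fl-labelled array and was at least 0.019 lower. Its deposited difference was -0.054, which cannot be set against its spread of 0.042, since the spread comes from differences cut at the floor. The dienoyl-CoA reductase gene Decr1 read 5.58 and 5.59 (0.012). The large difference of Ech1 was thus not shared by the other 3 auxiliary enzymes.

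The 250 bases before the start of Ech1 (chr7:28825088-28825337, plus strand, GRCm38.p6) are shown for the member with the largest difference, with GC boxes in capitals. Ech1 and Hadha were chosen for display after their values had been seen.
Ech1: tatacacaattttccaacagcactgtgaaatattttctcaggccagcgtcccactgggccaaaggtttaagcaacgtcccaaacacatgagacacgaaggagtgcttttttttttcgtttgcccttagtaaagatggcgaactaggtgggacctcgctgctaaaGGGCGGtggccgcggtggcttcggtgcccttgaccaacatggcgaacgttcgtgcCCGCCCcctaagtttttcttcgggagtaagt
They hold 2 GC boxes, which begin 86 and 31 bases before the start, the latter on the opposite strand.

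Mitochondrial beta-oxidation as a group had a median of -0.019, with 9 of its 15 genes compared on the lower side. That median is the bound of Eci2. The 12 genes that exceeded the floor on both arrays had a median of -0.12, with 8 lower and 4 higher. Beyond 1 spread, 5 of these 12 were lower (Ech1, Hadha, Hadh, Acadl and Acadvl) and 0 were higher, beside 15.1% and 13.8% of protein-coding genes above the floor on both arrays.

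All 3 electron transfer genes were lower on the Ssu72fl/fl-labelled array, beside 51.9% of all genes compared. Beyond 1 spread, 2 of the 3 were lower, beside 15.1% of protein-coding genes above the floor on both arrays. Their median of -0.31, the lowest of the 5 groups, is the value of Etfa, which read only 0.031 above the floor on the Ssu72fl/fl-labelled array. Etfa and Etfb encode the subunits of electron transfer flavoprotein, which accepts electrons from the acyl-CoA dehydrogenases. Etfa read 5.0 and 4.68, a difference of -0.31, or 1.24-fold lower. Adjusted for level, it differed by -0.32 against a spread of 0.13, and 1 of the other 200 protein-coding genes nearest in level was as low or lower. Etfb read 5.75 and 5.33, a difference of -0.43, or 1.35-fold lower. Adjusted for level, it differed by -0.34 against a spread of 0.22, and 12 of the 200 were as low or lower. The subunits of this dimer therefore differed in the same direction.

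Etfdh, the oxidoreductase that hands those electrons to ubiquinone, read 5.01 and 4.89. Its level-adjusted difference of -0.13 stayed inside a spread of 0.15. The value of Etfa depended on the floor. With a higher floor, the 75th percentile of all values, its signal on the Ssu72fl/fl-labelled array fell below it, and the difference was a bound of -0.027. The group's median then became -0.044, the value of Etfdh, which also fell below this floor on the Ssu72fl/fl-labelled array and is a bound.

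The upstream sequences of the electron transfer genes are shown because all members of the group were lower; they were chosen for display after their values had been seen. Each is the 250 bases before the start in GRCm38.p6, with CCAAT boxes and GC boxes on either strand in capitals (ATTGG is CCAAT on the opposite strand). Etfa is at chr9:55512244-55512493 on the minus strand, Etfb at chr7:43443822-43444071 on the plus strand and Etfdh at chr3:79628768-79629017 on the minus strand.
Etfa: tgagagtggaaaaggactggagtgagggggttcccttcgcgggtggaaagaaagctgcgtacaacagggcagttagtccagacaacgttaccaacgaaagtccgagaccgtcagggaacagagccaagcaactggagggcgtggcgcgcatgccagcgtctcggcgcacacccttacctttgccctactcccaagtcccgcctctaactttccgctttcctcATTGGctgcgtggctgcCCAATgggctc
Etfb: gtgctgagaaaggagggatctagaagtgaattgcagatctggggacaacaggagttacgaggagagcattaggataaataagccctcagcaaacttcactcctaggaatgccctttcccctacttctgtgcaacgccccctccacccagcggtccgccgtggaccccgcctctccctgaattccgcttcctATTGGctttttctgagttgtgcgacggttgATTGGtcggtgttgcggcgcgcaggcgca
Etfdh: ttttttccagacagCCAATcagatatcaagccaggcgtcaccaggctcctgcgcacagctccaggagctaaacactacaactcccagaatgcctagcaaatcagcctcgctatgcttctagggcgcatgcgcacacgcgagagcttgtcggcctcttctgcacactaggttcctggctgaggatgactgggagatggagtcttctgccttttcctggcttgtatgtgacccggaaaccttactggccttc
Etfa and Etfb each hold 2 CCAAT boxes within 60 bases of the start. In Etfa they begin 28 and 11 bases before it and in Etfb 59 and 29 bases before it. Of 27 member promoters in the RefSeq table, these were the only 2 with such a pair, which 1.27% of 21262 protein-coding promoters hold. Etfdh has 1 CCAAT box, which begins 236 bases before the start. The pair was noticed after the values had been seen. The window of 60 bases only just takes in the first box of Etfb, so 1.27% does not measure how rare such a pair is. At least 1 CCAAT box in that window was found in 14.8% of member promoters, against 11.9% of protein-coding promoters. The part of the pair in the differences was not tested.

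Across the 27 member promoters, taken as windows of 300 bases from 250 before to 50 after the start, GC boxes were frequent. GGGCGG was found on either strand in 22 of 27 (81.5%), against 46.2% of protein-coding promoters. The latter include genes without signal on these arrays, and the member windows had more GC (median 58.7% against 56.3%). CCAAT was found in 13 of 27 (48.1%), against 38.2%, and TATAAA in 1 of 27 (3.70%, Acot9), against 12.6%. AGGTCA, the core recognised by PPAR and other nuclear receptors, was found in Acadm, Acadvl, Cpt1a and Echs1 (14.8%), against 14.7% of protein-coding promoters. A direct repeat of AGGTCA with 1 base between, the form bound by PPAR with its partner RXR, matched in 0 of 27 and in 0.0470% of protein-coding promoters. TNAAGGTCA, the site of estrogen-related receptors, whose end overlaps AGGTCA, matched in 0 of 27 and in 1.03%. These are matches of letters in this window only and not binding sites. The 5 members beyond 1 spread in mitochondrial beta-oxidation held no motif in common: Acadvl had AGGTCA without a GC box, while Ech1, Hadha, Hadh and Acadl had a GC box without AGGTCA.

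**Figure D2:**
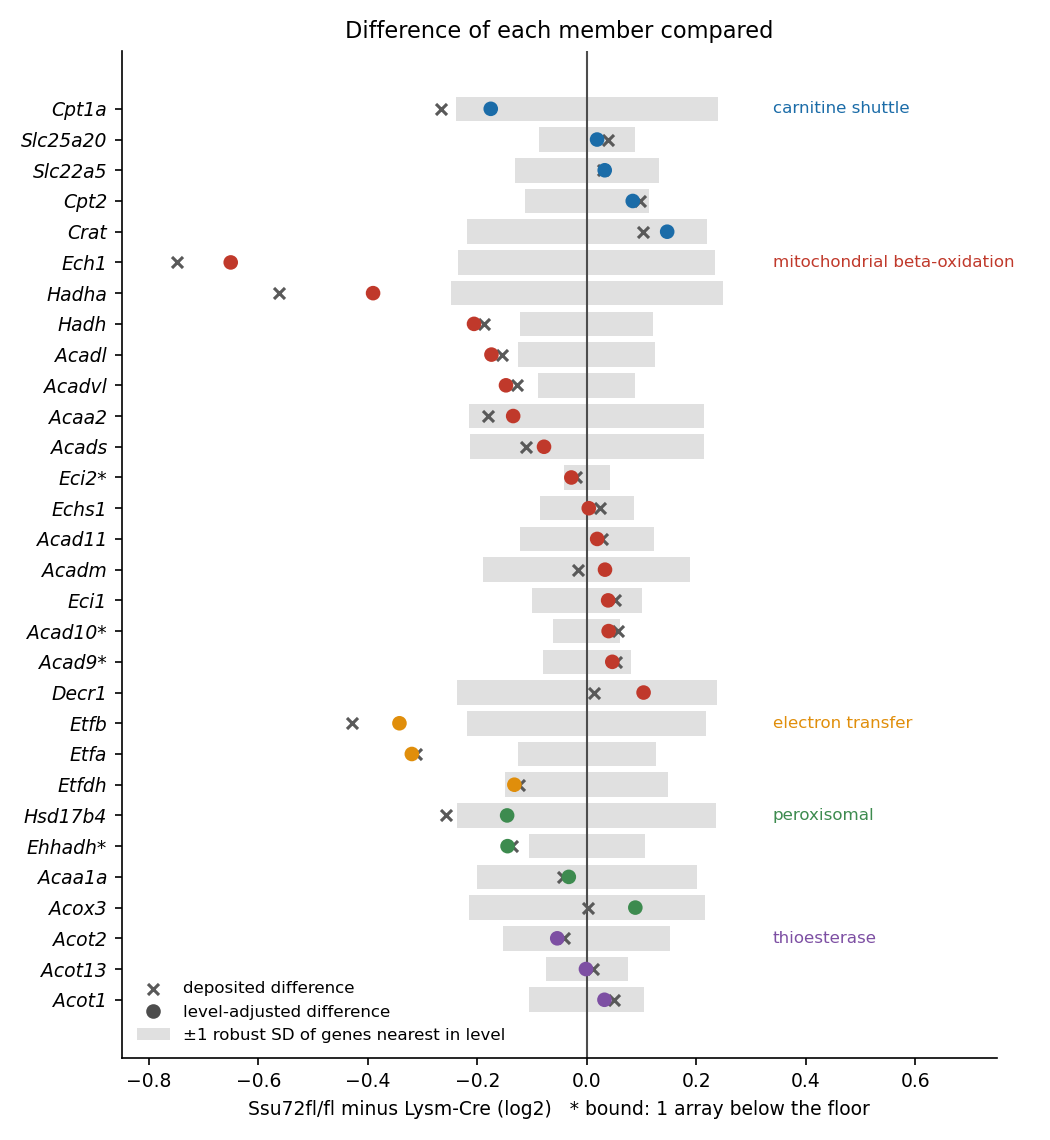
Deposited (crosses) and level-adjusted (filled circles) log2 differences of the 30 members compared, Ssu72fl/fl minus Lysm-Cre, with a grey bar of 1 robust SD on each side of 0 for genes of that level. The 8 circles outside their bar, Ech1, Hadha, Hadh, Acadl, Acadvl, Etfb, Etfa and Ehhadh, lie on the lower side; an asterisk marks the 4 bounds, Ehhadh among them.

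The peroxisomal genes were lower in 3 of 4, with a median of -0.090. Without Ehhadh, which is a bound, 2 of 3 were lower and the median was -0.044. Hsd17b4, whose bifunctional protein handles very long and branched chains, read 5.86 and 5.61, a difference of -0.26. After level adjustment this was -0.15, inside a spread of 0.24. Ehhadh, the other bifunctional enzyme, read 4.79 on the Lysm-Cre array and fell just under the floor on the Ssu72fl/fl-labelled array, so it was at least 0.14 lower. Its level-adjusted difference of -0.14 exceeded a spread of 0.11, but it was compared only because its Lysm-Cre value passed the floor. The thiolase gene Acaa1a (5.21 and 5.16, -0.044) and the branched-chain acyl-CoA oxidase gene Acox3 (5.54 on both, 0.0025) were nearly equal on the 2 arrays.

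Of the thioesterase genes, 1 was lower and 2 higher, and none differed by more than 0.049. Acot1, of the cytosol, read 4.68 and 4.73 (0.049), and its mitochondrial relative Acot2 read 4.97 and 4.93 (-0.041). These are closely related neighbours, and how the array separates their transcripts was not given in the sources used here. Acot13, a mitochondrial thioesterase gene of another fold, read 4.66 and 4.68 (0.011). Acot9 read 4.62 and 4.65 and was not above the floor on either array. Acot8, the peroxisomal thioesterase, shared its feature with Snx21 and was not compared. No thioesterase left its spread.

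Members with more signal tended to differ more in the lower direction. Across the 30 members, which share the same 2 arrays, level and difference correlated at Pearson r = -0.59 and Spearman rho = -0.54. Below a mean level of 5, 8 of 18 members were lower, with a median of 0.018. From 5 to 6, 9 of 12 were lower, with a median of -0.15, whereas 57.0% of protein-coding genes of that level were lower and their median was -0.034. After level adjustment, 8 of these 12 were lower and the median was -0.11.

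**Figure D3:**
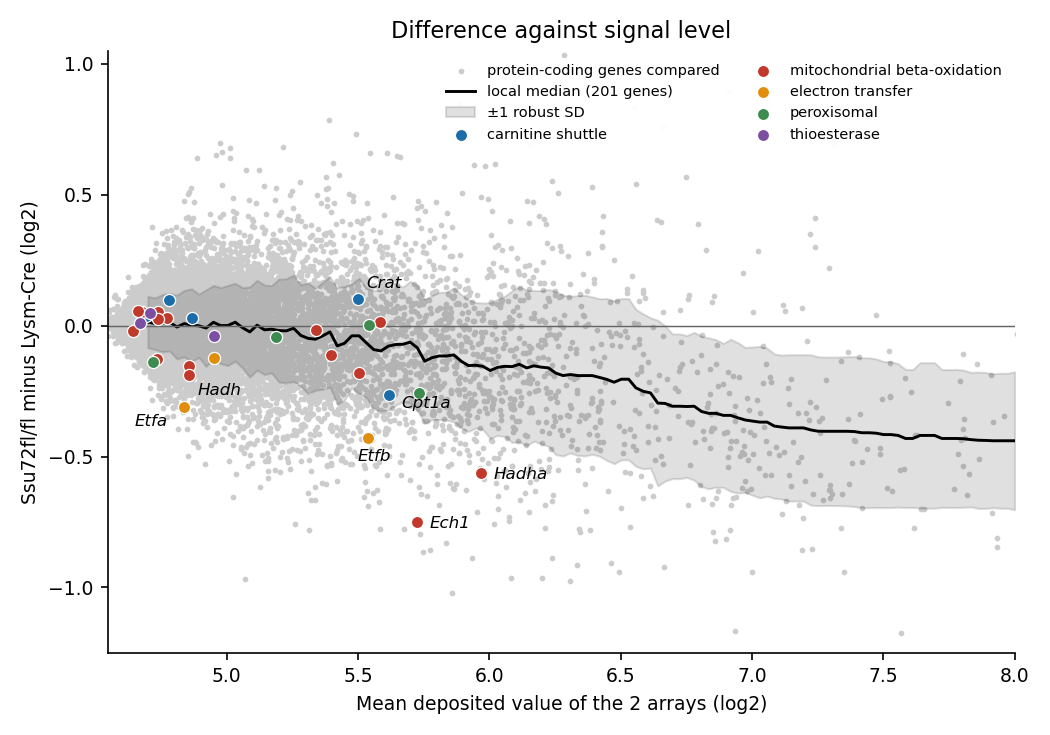
Log2 difference against mean log2 level for protein-coding genes compared (grey), with their local median and robust SD, and the 30 members in colour; genes above level 8 and a few beyond the vertical range are not drawn. Ech1, Hadha, Etfb and Etfa lie under the grey band.

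Related genes outside the members, pooled from 5 lists that are not limited to fatty acid oxidation itself, did not lean in one direction. Lists of fatty acid activation, further peroxisomal, further mitochondrial acyl-CoA, further thioesterase and regulator genes together held 86 genes besides the members, of which 54 were compared. These had a median of 0.0081, with 24 on the lower and 30 on the higher side, and after level adjustment 8 were beyond 1 spread on the lower and 9 on the higher side. Among the 44 above the floor on both arrays, these counts were 4 and 7. The 78 of the 86 with a feature had a lower mean on the Lysm-Cre array than the members, 4.89 against 5.10. This left them less room above the floor to read lower.

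Of 9 fatty acid activation and uptake genes, 6 were lower, and after level adjustment 5 were lower and 4 higher. Beyond 1 spread, 1 was lower, a bound, and 3 were higher (Slc27a4, Acsl6 and Fabp4). The scavenger receptor gene Cd36, which takes up long-chain fatty acids and oxidised lipoprotein, read 6.27 and 5.97 (-0.30, or -0.15 after level adjustment, inside a spread of 0.29). The acyl-CoA synthetase and transporter gene Slc27a4 read 4.69 and 4.97 (0.28, or 0.27 after level adjustment, beyond a spread of 0.12). Acsl6 (0.13) and the lipid chaperone gene Fabp4 (0.19) were also higher, and Dbi, the acyl-CoA binding protein gene, was lower (-0.096). Acsl5 was at -0.056. Acsl1 had no feature of its own and was not analysed here.

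Of 11 further peroxisomal genes, 5 were lower and 6 higher. Abcd2, which imports very long-chain acyl-CoA into peroxisomes, read 5.60 and 5.20 (-0.40, or -0.37 after level adjustment, beyond a spread of 0.21). Its relative Abcd3 and the carnitine octanoyltransferase gene Crot were below the floor on the Ssu72fl/fl-labelled array and were at least 0.14 and at least 0.15 lower. Acaa1b, the close paralogue of Acaa1a, was nearly equal at 6.37 and 6.38. The CoA hydrolase genes Nudt19 (0.19) and Nudt7 (0.16) were highest. Hacl1 was at -0.020, and Scp2, a thiolase and sterol carrier gene, at 0.0084.

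Of 10 further mitochondrial acyl-CoA and carnitine genes, 3 were lower and 7 higher (median 0.027). Pcca, a propionyl-CoA carboxylase subunit gene, read 5.01 and 4.76 (-0.25, against a spread of 0.14), and Cpt1c was at -0.069 and Hsd17b10 at -0.012. The highest above the floor on both arrays were Oxct1 (0.073), Acadsb (0.035) and Mlycd (0.034), the decarboxylase that removes the CPT1 inhibitor malonyl-CoA. Of 6 further thioesterase genes, 1 was lower (Acot11, -0.053) and 5 higher, among them Acot7 (0.11), Acot3 (0.082) and Acot4 (0.026).

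The regulators divided evenly, with 9 of 18 on each side and a median of -0.012. Beyond 1 spread after level adjustment, 3 were lower and 3 higher, or 2 and 2 among those above the floor on both arrays. Pparg read 6.04 and 5.65 (-0.39), and its level-adjusted difference of -0.27 exceeded a spread of 0.25. Lpin1, a coactivator of PPAR targets and phosphatidate phosphatase, was at -0.37 (level-adjusted -0.23 against 0.24), and Foxo1 at -0.28 (level-adjusted -0.12 against 0.26). The coactivator gene Ppargc1b read 5.02 and 4.87 (-0.16, against a spread of 0.15). On the other side were Ppard (0.14), Esrra (0.13), Rxra (0.14) and Rxrb (0.22), all genes of nuclear receptors. Rxrb was at 0.23 after level adjustment, beyond a spread of 0.16. Acacb, which makes malonyl-CoA at the mitochondrial surface, was at least 0.21 higher. Ppara and Ppargc1a were not above the floor on either array.

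The tricarboxylic acid cycle, which oxidises the acetyl-CoA produced, was lower in 10 of 15 genes, with a median of -0.054. The share of all genes compared on that side was 51.9%. Level adjustment left 8 of the 15 below 0 and 7 above it, and the median moved to -0.033. Beyond 1 spread, 3 were lower and 0 higher, and these 3 are 20.0% of the list, near the 16.5% of protein-coding genes compared. Mdh2, the malate dehydrogenase gene, read 6.15 and 5.55 (-0.60, level-adjusted -0.49 against 0.25), and Dld, a subunit of several dehydrogenase complexes, read 5.0 and 4.67 (-0.33). Succinate dehydrogenase genes such as Sdhb (0.088) and Sdha (0.084), and Idh3g (0.11), were slightly higher.

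Fatty acid synthesis and desaturation genes were lower in 7 of 10, with a median of -0.11, and 4 of the 10 were beyond 1 spread on the lower side and 0 on the higher side, beside 16.5% and 15.2% of protein-coding genes compared. Scd1, the stearoyl-CoA desaturase gene, read 5.69 and 5.19 (-0.51), Acly, which makes cytosolic acetyl-CoA, read 5.76 and 5.34 (-0.42), and Mcat was at -0.17.

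**Figure D4:**
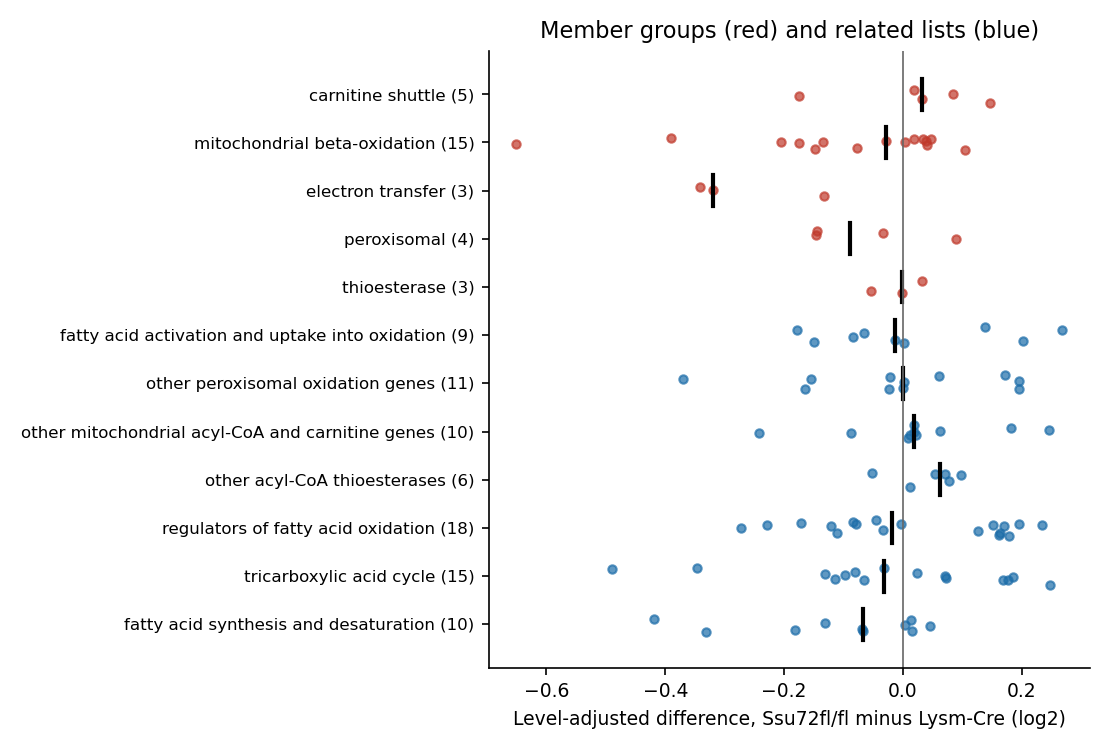
Level-adjusted log2 differences of the genes compared in the 5 member groups (red) and 7 related lists (blue), with a black bar at each median and the number of genes in parentheses. The 3 electron transfer genes have the lowest median, -0.32, and the other medians lie between -0.089 and 0.063.

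Markers of the labelled cell type were present, and markers of other cell types were not absent. All 15 alveolar macrophage markers with a feature were above the floor on at least 1 array, among them Marco (6.28 and 5.78) and Siglecf (5.18 and 5.09), and 14 of them were lower. After level adjustment 8 were lower and 7 higher, and the median moved from -0.32 to -0.049. Their mean log2 value was 7.37 on the Lysm-Cre array and 7.07 on the Ssu72fl/fl-labelled array. Sftpc, a marker of alveolar type 2 cells, read 8.71 and 8.35, and the source of this signal was not tested. Of the 12 markers of that cell type, 10 were lower, with means of 5.65 and 5.46. Adjusted for level, Sftpc was at 0.078, and of the 12 markers 9 were lower, 4 of them beyond 1 spread. Among these 4 is Scd1, which is also counted above with the fatty acid synthesis and desaturation genes. Of 11 interstitial macrophage and monocyte markers, 9 were lower, with means of 5.96 and 5.57 and H2-Ab1 (-1.07) and H2-Aa (-0.86) lowest. After level adjustment 9 of these 11 were still lower, 8 of them beyond 1 spread. Neutrophil markers had means of 4.77 and 4.74 (5 of 6 compared lower, Cxcr2, Ly6g and Camp not above the floor). Lymphocyte markers had means of 5.02 and 5.02 (3 of 6 lower, Cd3e, Cd3g, Ms4a1 and Klrb1c not above it), and structural and endothelial markers 5.53 and 5.41 (8 of 10 lower). These means hide single high signals, Ighm at 7.46 and 6.88 and Scgb1a1 at 8.02 and 7.99. Adjusted for level, Ighm was at -0.19, inside a spread of 0.28, and Scgb1a1 at 0.41, beyond a spread of 0.26. Most interstitial macrophage and monocyte markers, and most alveolar type 2 markers with the exception of Sftpc and 2 others, were thus lower after level adjustment. So were 5 of 6 neutrophil markers and 7 of 10 structural and endothelial markers, while lymphocyte markers divided into 3 lower and 3 higher. The members compared divided into 17 lower and 13 higher after the same adjustment. The part of other cell types' signal in the members' differences was not tested.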

How the data were processed

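RNA of sorted alveolar macrophages was measured on 1 array per genotype. The values deposited by the authors are log2 expression values, 1 per feature; their scale was taken as log2 from the values themselves, which run from 4.23 to 13.5. MAS5 is named, with no role, per the submitters' processing notes. How background, normalization and centring were handled was not given in the sources used here, and if signal was compressed, differences understate true changes. Column medians were 4.65 (Lysm-Cre) and 4.66 (Ssu72fl/fl).

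Gene names came from the platform's annotation. Of 33793 features, 23521 had 1 symbol, 1814 several and 8458 none, and 23328 of the first kind were matched by Entrez identifier to RefSeq (GRCm38.p6). The array's own build is not given, so coordinates are RefSeq's and belong only to the sequences printed; promoters of 27 of the 34 members matched by symbol. Each gene took its feature with the highest mean. Values below the floor, the 50th percentile, were set to it, so differences with 1 array below it are bounds. Differences were counted at 1.5-fold. Python 3.11.15, numpy 2.4.6 and pandas 2.3.3 were used. The level adjustment was run on simulated differences drawn from its own fitted trend and spread. That checks the code and not whether the adjustment suits these arrays.

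The members, lists and alternatives (centring, quantile normalization, level trends, floors at the 25th and 75th percentiles, feature means, and other fold thresholds) were chosen with earlier results of these data known. Named were all members and, of other lists, up to 3 genes at each end above the floor on both arrays plus preset carriers and regulators. The comparison of genes with 2 features was added after the values had been seen. Identity between related proteins was not computed.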

Additional observations from a re-analysis of the deposited data

How the results depend on the processing

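Of the 30 members compared, 16 were below 0 and 10 above 0 as reported and in each alternative of scale, level trend, floor and feature choice that gave them a value, and 4 (Acadm, Acot13, Acox3 and Crat) took both signs. The count of lower members ran from 16 (quantile normalization, and the level trend of all features removed) to 19 (median centring) of 30. With the floor at the 75th percentile 15 members were compared, 12 of them lower, since fewer genes pass that floor. The carnitine shuttle median then became -0.081, but only Cpt1a (-0.27) and Crat (0.10, of uncertain direction) were compared. The median of mitochondrial beta-oxidation became -0.15. That of electron transfer became -0.044, the value of Etfdh, and both Etfdh and Etfa were then bounds. Restriction to the 26 members above the floor on both arrays, chosen after seeing the data, left 15 lower and 11 higher. The thioesterase median, 0.011 as reported, was -0.0015 with the level trend of protein-coding genes removed. Ech1 ranged from -0.76 to -0.63, Hadha from -0.57 to -0.38 and Etfb from -0.44 to -0.34. At 2-fold 0 members passed, and at the less strict of the thresholds tried 3 did (Ech1, Hadha and Etfb). Most members lie less than 1 above the floor, which limits how much lower they can read. With 1 array a genotype, no replicate could be left out. No paired analysis was possible because each genotype has 1 array.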
